A study of Sus scrofa with 2 samples.

Results

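The ERBB receptors and their neuregulin ligands were followed across ductal-like, Schwann-like, endocrine-like and acinar-like nuclei of the pig pancreas. The members were found by gene symbol from the list EGFR, ERBB3, ERBB4, NRG1 and NRG3, a rule that used none of their values. The list itself was written with earlier results of these data known. Counts of members beside shares of all genes are therefore descriptions only. Of these symbols, 4 were found among the 31908 genes of the count matrices, namely EGFR, ERBB4, NRG1 and NRG3. The symbol ERBB3 was not among them. The identifier that the reference annotation calls ERBB3, ENSSSCG00000020725, has a row without a symbol, and its values are given beside those of the 4 members.

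Nuclei came from the pancreas of 1 wild-type (WT) Bama pig and 1 transgenic Bama pig (PIGinH11), so each genotype was 1 library. The PIGinH11 pig carried GIPRdn, a dominant-negative receptor of the incretin GIP, hIAPP, the human islet amyloid polypeptide, and PNPLA3 with the substitution I148M, all knocked in at the H11 locus under promoters specific to beta cells or liver. Both pigs were males of 18 months and had received a control diet until 6 months and then a high-fat and high-sucrose diet (HFHSD) for 12 months, so no library came from a pig without HFHSD. A single piece of pancreas was taken per pig, and the genotype, the pig, the piece and the library cannot be told apart. With 1 library per genotype no test was possible, and the 95% intervals given with each value cover counting error only.

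ERBB receptors are receptor tyrosine kinases that signal as dimers. EGFR binds EGF-type ligands such as EGF and TGFA, ERBB3 and ERBB4 bind the neuregulins, ERBB2 has no known ligand of its own and acts as a partner, and ERBB3 has a weak kinase and signals through its partners. In the pancreas, EGFR signalling is known for its part in the change of acinar cells to duct-like cells, and neuregulin 1 signalling through ERBB3 is known for its part in the growth of Schwann cells, the glia of peripheral nerves.

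In Sscrofa11.1, RefSeq places EGFR on chromosome 9 (139302410 to 139474632), ERBB4 on chromosome 15 (113966573 to 115096984), NRG1 on chromosome 15 (52625550 to 53688003), NRG3 on chromosome 14 (83316962 to 84405347) and ERBB3 on chromosome 5 (21474218 to 21495040). The 4 members span 172.22 kb (EGFR), 1130.4 kb (ERBB4), 1062.5 kb (NRG1) and 1088.4 kb (NRG3), whereas ERBB3 spans 20.823 kb. Long genes yield many intronic UMIs in nuclei, so different genes were not ranked by CPM alone but also per 100 kb of span. RefSeq places 1 long non-coding RNA overlapping the span of EGFR and 2 pseudogenes overlapping that of ERBB4. Among further ligands described below, the span of NRG4 overlaps 3 loci, the protein-coding FBXO22, another protein-coding gene and a pseudogene. That of NRG2 overlaps a long non-coding RNA and a pseudogene, and that of TGFA a long non-coding RNA. The part of these loci in the levels was not tested.

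The WT library held 55784067 UMIs in 13619 barcodes and the PIGinH11 library 26228811 UMIs in 14964 barcodes, and 60 barcode sequences occurred in both. Nuclei were clustered anew and named from marker genes. In the order WT and PIGinH11, there were 2152 and 2194 ductal-like, 27 and 35 Schwann-like, 222 and 316 endocrine-like and 8433 and 9071 acinar-like nuclei. Nuclei of the PIGinH11 library were shallower, with a median of 1024.5 UMIs against 3405 in ductal-like, 1170 against 3038 in Schwann-like, 2053 against 3839 in endocrine-like and 1197 against 2848 in acinar-like nuclei. All 9 ductal markers were found in the ductal-like clusters, and 8 of them had their highest level there. Schwann-like nuclei were named from 4 markers, CDH19, SCN7A, XKR4 and INSC. SOX10, a defining factor of the lineage, had 9 and 4 UMIs in them, and FOXD3 none.

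Levels are UMIs per 1000000 UMIs of the class (CPM). ERBB4 had its highest level in ductal-like nuclei. It was 1683 CPM in WT (95% interval 1656 to 1711, 14467 UMIs) and 1639 CPM in PIGinH11 (1595 to 1683, 5438 UMIs). Acinar-like nuclei had 147 CPM in WT and 164 CPM in PIGinH11. Thus the ductal-like level of ERBB4 was 11.5-fold that of acinar-like nuclei in the WT library (11.11 to 11.88) and 9.97-fold in the PIGinH11 library (9.51 to 10.5). The ductal-like class ranked first of 9 named classes in both libraries, and its interval overlapped with no other. The study lists ERBB4 among its ductal genes, chosen on these same libraries, so this is not independent evidence.

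Of the 4 members, 2 had a ductal-like level of at least 2-fold the acinar-like level in both libraries, ERBB4 and NRG3, against 12.9% of 17099 genes with at least 50 UMIs. EGFR and NRG1 were within 2-fold of the acinar-like level. By the same rule 0 members were higher in endocrine-like nuclei, against 15.7% of 16373 genes, and in Schwann-like nuclei 0 were, against 8.61% of 15978 genes. In the other direction, 2 members, EGFR and NRG1, were at least 2-fold lower than the acinar-like level in both libraries, in endocrine-like nuclei against 14.4% and in Schwann-like nuclei against 41.1% of these genes. In ductal-like nuclei 0 members were, against 11.6%. The endocrine-like log2 ratios were -1.65 and -1.48 for EGFR and -1.48 and -1.65 for NRG1, whereas the Schwann-like ones rest on at most 3 UMIs.

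**Figure D1:**
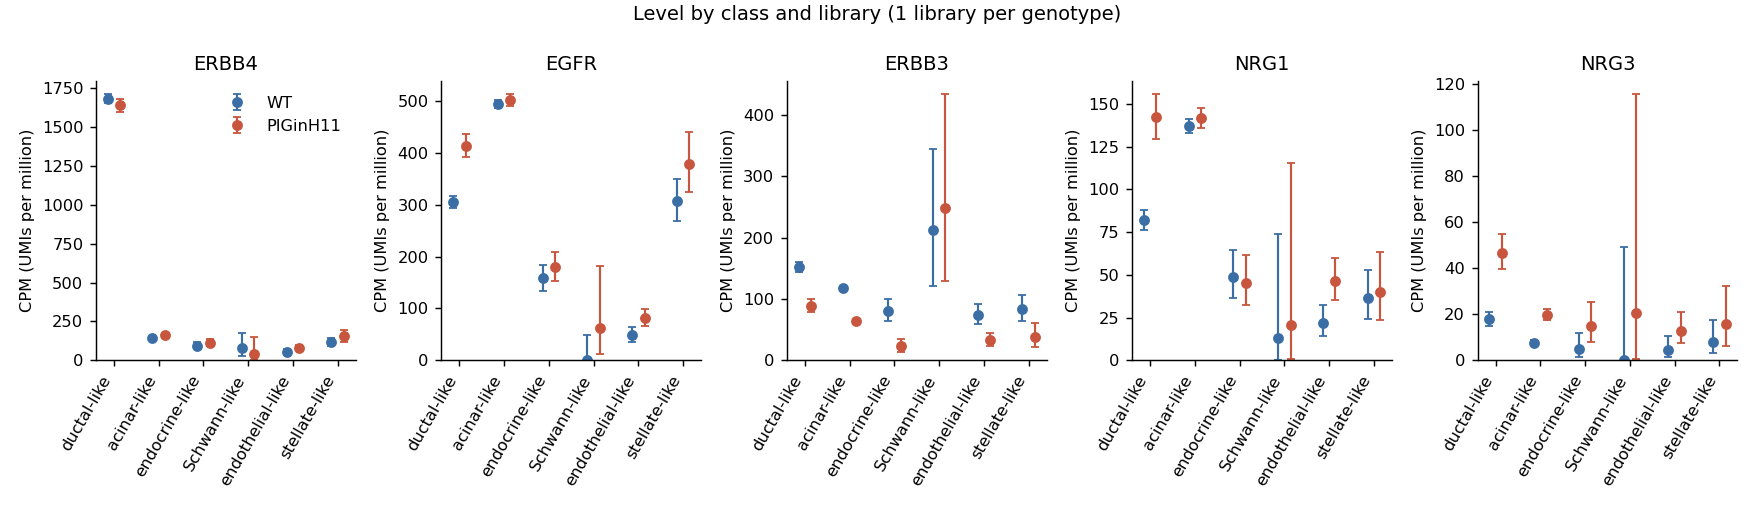
Level of 5 genes in CPM (y axis, linear, a separate scale for each gene) by class of nuclei (x axis), with 1 point per library and bars for the exact Poisson 95% interval of the UMI sum. ERBB4 stands at 1683 and 1639 CPM in ductal-like nuclei, EGFR is highest in acinar-like nuclei at 495 and 502 CPM, and ERBB3 in Schwann-like nuclei rests on 16 and 12 UMIs.

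Most ductal-like nuclei held ERBB4. At least 1 UMI was found in 87.4% of WT and 64.2% of PIGinH11 ductal-like nuclei. After each nucleus was thinned to 500 UMIs these shares were 48.6% (46.5 to 50.7) and 43.7% (41.6 to 45.8). Endothelial-like nuclei, which are not known for ERBB4, served as the background, with 3.60% and 4.57% after thinning, 15.5% and 12.1% before it, and medians of 3857 and 1603 UMIs. Acinar-like nuclei stood between them, with 7.17% and 8.06% after thinning. The acinar-like level of ERBB4 was 8.71% and 10.0% of the ductal-like level, whereas the 9 ductal markers, summed, reached 1.44% and 2.10% in acinar-like nuclei. In endothelial-like nuclei the corresponding values were 3.31% and 4.94% for ERBB4 and 2.80% and 4.51% for the ductal markers, so that there ERBB4 stood in nearly the same proportion as the ductal markers. The marker sum is not specific to ductal RNA, as PDE3A was highest in mural-like nuclei. In stellate-like nuclei the sum reached 12.8% and 15.5%, against 6.96% and 9.39% for ERBB4. The part of ductal RNA in these levels was not tested. Lymphocyte-like and macrophage-like nuclei had ERBB4 levels of 106 to 195 CPM on 14 to 23 UMIs, whose intervals overlapped with that of acinar-like nuclei.

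Among endocrine-like nuclei, ERBB4 was higher in the delta-like ones, the somatostatin cells, than in the beta-like and alpha-like ones, and in PIGinH11 it was higher still in gamma-like nuclei, with overlapping intervals. Delta-like nuclei had 680 CPM in WT (515 to 880, 57 UMIs in 28 nuclei) and 277 CPM in PIGinH11 (200 to 375, 42 UMIs in 63 nuclei). Beta-like nuclei had 35.5 and 34.8 CPM and alpha-like nuclei 49.4 and 24.2 CPM, so delta-like nuclei stood above both in both libraries with no overlap of intervals. Gamma-like nuclei, the pancreatic polypeptide cells, had 450 CPM in PIGinH11 (318 to 617, 38 UMIs in 42 nuclei), and 3 UMIs in 5 nuclei in WT. After thinning, 35.7% (18.6 to 55.9) and 20.6% (11.5 to 32.7) of delta-like nuclei held ERBB4, against 3.03% and 5.19% of beta-like nuclei. The summed ductal markers reached 1287 and 1756 CPM in delta-like nuclei, against 1081 and 960 CPM in beta-like nuclei, and the part of ductal RNA in the delta-like level was not tested.

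Between the libraries, the level of ERBB4 in ductal-like nuclei as a whole differed little, with a log2 ratio of PIGinH11 over WT of -0.039 (-0.084 to 0.0065). The ratio was positive, however, among ductal-like nuclei of like depth. At 500 to 1000 UMIs per nucleus ERBB4 was at 714 CPM in WT and 1010 CPM in PIGinH11. At 1000 to 2000 UMIs the levels were 1203 and 1413 CPM, at 2000 to 4000 UMIs 1552 and 1863 CPM, and at 4000 to 13000 UMIs 1798 and 2317 CPM. The log2 ratios in these 4 ranges were 0.50, 0.23, 0.26 and 0.37, each with an interval above 0. Deeper ductal-like nuclei had a higher ERBB4 level in both libraries, and 900 of the 2152 WT nuclei but 128 of the 2194 PIGinH11 nuclei had 4000 UMIs or more. These depth ranges were chosen after the data were seen. By cluster the direction was mixed, with a log2 ratio of -0.31 (-0.39 to -0.24) in the largest of the 3 ductal-like clusters, 0.18 (0.12 to 0.24) in the next and -0.36 (-0.62 to -0.11) in the smallest.

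EGFR had its highest level in acinar-like nuclei. It was at 495 CPM in WT (487 to 503, 14941 UMIs) and 502 CPM in PIGinH11 (491 to 513, 7777 UMIs), with a log2 ratio of 0.021 (-0.019 to 0.060). Ductal-like nuclei had 306 and 414 CPM, which is 1.62-fold and 1.21-fold lower than the acinar-like level of the same library. Stellate-like nuclei, named for the fibroblast-like cells of the pancreas, had 307 and 379 CPM, and their intervals overlapped with those of ductal-like nuclei. Endocrine-like nuclei had 158 CPM in WT (134 to 185) and 179 CPM in PIGinH11 (153 to 210), with nearly the same level in alpha-like (171 and 161 CPM) and beta-like nuclei (165 and 159 CPM).

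The EGFR level of endothelial-like nuclei was 48.4 and 81.7 CPM, or 9.77% and 16.3% of the acinar-like level. The 9 acinar markers, summed, were at 8.53% and 15.8% of their acinar-like level in the same nuclei. In endocrine-like nuclei EGFR stood at 31.9% and 35.8% of the acinar-like level, above the 14.3% and 23.4% of the acinar markers. In Schwann-like nuclei EGFR had 0 UMIs in WT, where the limit that 0 UMIs allow is 39.8 CPM, and 3 UMIs in PIGinH11. Thus EGFR in Schwann-like nuclei was at or below the limit that the counts can resolve. After thinning to 500 UMIs, EGFR was held by 21.8% and 22.5% of acinar-like, 14.0% and 18.4% of ductal-like and 0.719% and 5.67% of endothelial-like nuclei.

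In ductal-like nuclei EGFR was higher in PIGinH11, with a log2 ratio of 0.44 (0.34 to 0.53). It was higher there in each of the 4 depth ranges, by 0.34 to 0.70, with an interval that reached below 0 only at 500 to 1000 UMIs. Relative to the median gene of ductal-like nuclei, at 0.12, the ratio was 0.32. The 9 acinar markers, summed, were also higher in ductal-like nuclei of PIGinH11, at 1563 CPM against 910 CPM, and their part in the EGFR difference was not tested. In acinar-like nuclei, where the median gene stood at 0.20, the EGFR ratio was -0.18 after median scaling. At 500 to 1000 UMIs the ratio was 0.18 (0.0035 to 0.36), and in the 3 ranges from 1000 UMIs upward the ratios lay between -0.12 and -0.032.

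ERBB3 was found in each of the 4 classes. In WT it was at 151 CPM in ductal-like (143 to 160), 118 CPM in acinar-like (114 to 122), 80.9 CPM in endocrine-like (64.3 to 101), 73.9 CPM in endothelial-like (58.7 to 91.8) and 83.4 CPM in stellate-like nuclei. In PIGinH11 it was at 89.2, 64.0, 22.6, 32.9 and 37.9 CPM in the same classes. Macrophage-like nuclei of WT had 218 CPM on 28 UMIs, of which 13 were in 1 nucleus. After thinning, 8.64% and 4.47% of ductal-like and 6.91% and 3.30% of acinar-like nuclei held ERBB3, against 4.32% (2.25 to 7.42) and 2.56% (1.41 to 4.26) of endothelial-like nuclei. The ductal-like share of WT (7.49 to 9.91) stood above the endothelial-like share. The acinar-like shares and the ductal-like share of PIGinH11 could not be told from the endothelial-like shares by their intervals. By CPM, which uses all UMIs, the ductal-like and acinar-like intervals lay above the endothelial-like one in both libraries. In PIGinH11 they were 79.3 to 99.96 CPM in ductal-like, 60.1 to 68.1 CPM in acinar-like and 23.6 to 44.6 CPM in endothelial-like nuclei. Before thinning, ERBB3 was found in 39.7% and 11.2% of ductal-like and 23.0% and 6.95% of endothelial-like nuclei. Unlike EGFR, the level in endothelial-like nuclei reached 62.7% and 51.3% of the acinar-like level, several-fold above the share of the acinar markers. Whether endothelial-like nuclei hold ERBB3 RNA of their own was not tested, so for ERBB3 they are a comparison and not a measured background.

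Schwann-like nuclei had the highest ERBB3 level of PIGinH11 and the second of WT. It was 212 CPM in WT (121 to 345, 16 UMIs in 27 nuclei) and 249 CPM in PIGinH11 (129 to 434, 12 UMIs in 35 nuclei). This was 1.80-fold (1.03 to 2.93) and 3.89-fold (2.00 to 6.82) above the acinar-like level of the same library. In PIGinH11 the interval lay above those of ductal-like and acinar-like nuclei and reached that of macrophage-like nuclei (31.2 to 130), and in WT it overlapped with those of macrophage-like, ductal-like and acinar-like nuclei. Among nuclei of 1000 to 3000 UMIs the WT level was below that of acinar-like nuclei, with a log2 ratio of -0.50. The nuclei of the Schwann cluster that were left unnamed for their acinar or ductal markers, 20 in WT and 88 in PIGinH11, had 250 and 173 CPM. Their acinar markers summed to 8234 and 11205 CPM, against 903 and 2653 CPM in the Schwann-like nuclei. ERBB2, the partner of ERBB3, had 4 UMIs in the Schwann-like nuclei of each library, and NRG1 had 1 UMI in each.

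The ERBB3 level was lower in PIGinH11 in ductal-like, endocrine-like, acinar-like, endothelial-like and stellate-like nuclei alike. The log2 ratio was -0.76 (-0.95 to -0.58) in ductal-like, -0.88 (-0.98 to -0.78) in acinar-like, -1.84 (-2.63 to -1.12) in endocrine-like, -1.17 (-1.75 to -0.61) in endothelial-like and -1.14 (-2.01 to -0.35) in stellate-like nuclei. The endocrine-like, endothelial-like and stellate-like differences were past 2-fold. In endocrine-like nuclei 2.61% of all genes were past 2-fold in this direction, and this share was not computed for endothelial-like and stellate-like nuclei. In Schwann-like nuclei, on 16 and 12 UMIs, the ratio was 0.23 (-0.98 to 1.40), so that no difference could be resolved. The difference was larger in shallow nuclei, with log2 ratios from -1.66 at 500 to 1000 UMIs to -0.95 at 4000 to 13000 UMIs in ductal-like nuclei and from -1.83 to -0.76 in acinar-like nuclei. In beta-like nuclei ERBB3 had 45 UMIs in WT and 5 in PIGinH11, or 72.7 and 12.4 CPM. The study reports a smaller share of exonic and a larger share of intronic reads for the transgenic library, and ERBB3 has a far shorter span than the members. ERBB2, with a span of 29.764 kb, had log2 ratios of 0.11 in ductal-like and 0.018 in acinar-like nuclei. The ligand EREG, with a span of 21.215 kb, had log2 ratios of -1.90 (-2.32 to -1.51) in ductal-like and -0.62 (-1.28 to -0.0013) in acinar-like nuclei. The part of read composition in the ERBB3 difference was not tested.

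**Figure D2:**
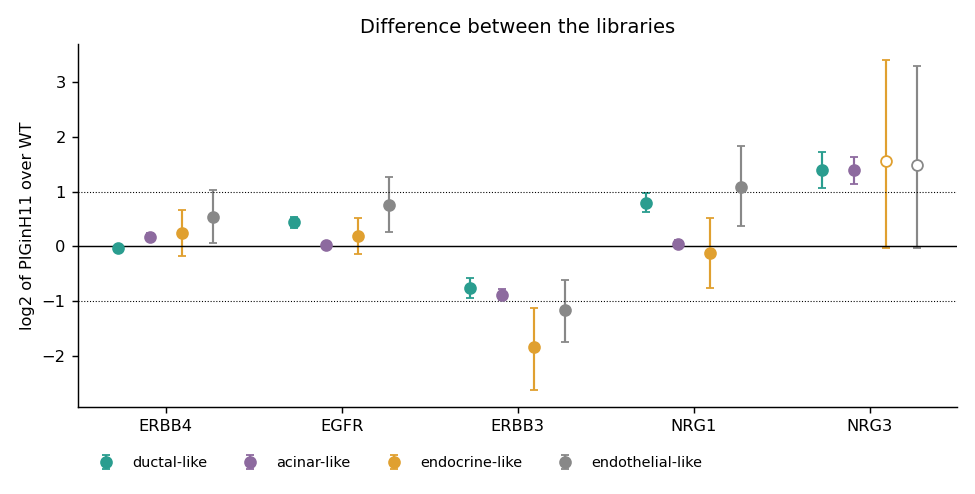
Log2 ratio of the PIGinH11 over the WT level (y axis) for 5 genes (x axis) in 4 classes of nuclei (ductal-like, acinar-like, endocrine-like and endothelial-like), with the exact conditional binomial 95% interval, dotted lines at 2-fold and open points for fewer than 50 UMIs over both libraries. ERBB3 lies below 0 in these 4 classes, NRG3 lies at 1.39 in both ductal-like and acinar-like nuclei, and ERBB4 lies at -0.039 in ductal-like nuclei.

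Compared per 100 kb of gene span, the receptors of WT took another order than in CPM. The division assumes that UMIs grow with span. Exonic UMIs of 3' chemistry need not do so, and the division then favours short genes such as ERBB3 and ERBB2. The order is thus set in part by the divisor and was not read as an order of expression. In WT ductal-like nuclei ERBB3 had 727 CPM per 100 kb, ERBB2 319, EGFR 177 and ERBB4 149. In WT acinar-like nuclei the values were 566, 241, 287 and 12.96 CPM per 100 kb. ERBB2 itself was at 94.8 and 102 CPM in ductal-like and 71.6 and 72.5 CPM in acinar-like nuclei, whereas endocrine-like nuclei had 7 and 10 UMIs of it.

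NRG1, a ligand of ERBB3 and ERBB4, had most of its UMIs in acinar-like and ductal-like nuclei. By level, macrophage-like nuclei of WT (101 CPM on 13 UMIs), lymphocyte-like nuclei of PIGinH11 (125 CPM on 16 UMIs) and gamma-like nuclei of PIGinH11 (201 CPM on 17 UMIs) had intervals that overlapped with that of acinar-like nuclei. Acinar-like nuclei had 137 CPM in WT (133 to 141, 4139 UMIs) and 142 CPM in PIGinH11 (136 to 148, 2194 UMIs), a log2 ratio of 0.047 (-0.028 to 0.12), which was -0.16 after median scaling. Ductal-like nuclei had 81.9 CPM in WT (76.0 to 88.2, 704 UMIs) and 142 CPM in PIGinH11 (130 to 156, 472 UMIs), a log2 ratio of 0.80 (0.63 to 0.97). In WT the ductal-like level was 1.67-fold below the acinar-like one, whereas in PIGinH11 the levels did not differ beyond their intervals. The higher ductal-like level of PIGinH11 was present in each depth range, with log2 ratios of 0.43, 0.50, 0.87 and 0.96, of which those from 2000 UMIs upward had intervals above 0. It was also present in each of the 3 ductal-like clusters, at 1.10 (0.84 to 1.36), 0.50 (0.26 to 0.74) and 1.07 (-0.01 to 2.08). Endothelial-like nuclei also had more NRG1 in PIGinH11, at 46.5 CPM against 21.9 CPM, or 1.09 (0.38 to 1.84) on the log2 scale. The summed acinar markers were higher in PIGinH11 in both classes, at 1563 against 910 CPM in ductal-like and 3244 against 1960 CPM in endothelial-like nuclei, and their part in the NRG1 differences was not tested.

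The UMIs of NRG1 were concentrated in fewer nuclei than those of EGFR. The 10 ductal-like nuclei with the most NRG1 UMIs held 17.2% of them in WT and 15.3% in PIGinH11, with up to 23 and 11 UMIs in 1 nucleus, against 3.05% and 4.95% for EGFR. In endocrine-like nuclei NRG1 was at 49.0 and 45.1 CPM. In beta-like nuclei it had 41 UMIs in WT and 6 UMIs in PIGinH11, or 66.2 and 14.9 CPM, and as the top 10 of all endocrine-like nuclei held 71.4% and 70.0% of the NRG1 UMIs, these values rested on few nuclei.

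NRG3, a ligand of ERBB4 known mainly from the nervous system, was the lowest of the 4 members in ductal-like and acinar-like nuclei, also per 100 kb. Ductal-like nuclei had 17.8 CPM in WT (15.1 to 20.9, 153 UMIs) and 46.7 CPM in PIGinH11 (39.6 to 54.7, 155 UMIs). Acinar-like nuclei had 7.58 CPM in WT (6.63 to 8.63, 229 UMIs) and 19.8 CPM in PIGinH11 (17.7 to 22.2, 307 UMIs). The ductal-like level was 2.35-fold the acinar-like level in WT (1.90 to 2.89) and 2.36-fold in PIGinH11 (1.93 to 2.87). After thinning, 0.883% and 3.28% of ductal-like and 0.605% and 1.92% of acinar-like nuclei held NRG3, against 0 of 278 and 1.10% of endothelial-like nuclei. It was the 1 member at least 2-fold higher in PIGinH11, with a log2 ratio of 1.39 in both ductal-like (1.06 to 1.72) and acinar-like nuclei (1.13 to 1.64). The background for this count was 10.5% of 11843 genes in ductal-like and 16.3% of 15944 genes in acinar-like nuclei. No member was at least 2-fold lower in these classes, where 3.02% and 2.92% of all genes were. Endothelial-like nuclei had NRG3 at 4.56 and 12.8 CPM on 5 and 16 UMIs, a log2 ratio of 1.49 (-0.023 to 3.29). Their intervals (1.48 to 10.6 and 7.33 to 20.8 CPM) overlapped with those of acinar-like nuclei in both libraries, but not with those of ductal-like nuclei.

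The difference in NRG3 was under 2-fold among nuclei of like depth, except in acinar-like nuclei of 500 to 1000 UMIs. In ductal-like nuclei it was at 74.2 and 96.2 CPM at 500 to 1000 UMIs per nucleus, 30.5 and 47.4 CPM at 1000 to 2000, 24.0 and 29.2 CPM at 2000 to 4000 and 13.2 and 15.1 CPM at 4000 to 13000, in the order WT and PIGinH11. The log2 ratios were 0.37, 0.64, 0.28 and 0.19, and all 4 intervals reached below 0. In acinar-like nuclei, at 23.8 CPM in WT and 65.6 CPM in PIGinH11, the ratio was 1.46 (0.72 to 2.30) at 500 to 1000 UMIs, the range that held 171 of the 307 NRG3 UMIs of PIGinH11. It was 0.047 (-0.44 to 0.54) at 1000 to 2000, -0.70 (-1.37 to -0.06) at 2000 to 4000 and 0.11 (-0.74 to 0.88) at 4000 to 13000. Shallow nuclei had the higher NRG3 level in both libraries. The PIGinH11 library held more of them, 1068 against 140 ductal-like and 3586 against 872 acinar-like nuclei at 500 to 1000 UMIs. By cluster, the acinar-like difference was uneven. A cluster with medians of 1796 and 918.5 UMIs held 197 of the 307 NRG3 UMIs of PIGinH11. Its NRG3 level was 22.2 CPM in WT and 76.0 CPM in PIGinH11, a log2 ratio of 1.78 (1.40 to 2.16). The shallowest acinar-like cluster, with medians of 1101.5 and 721 UMIs, had 19.9 and 24.2 CPM, or 0.28 (-0.46 to 1.02). The parts of depth and cluster in the NRG3 difference were not tested. Among nuclei of 1000 to 3000 UMIs the log2 ratio was 0.38 in ductal-like and -0.039 in acinar-like nuclei, both under 2-fold.

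**Figure D3:**
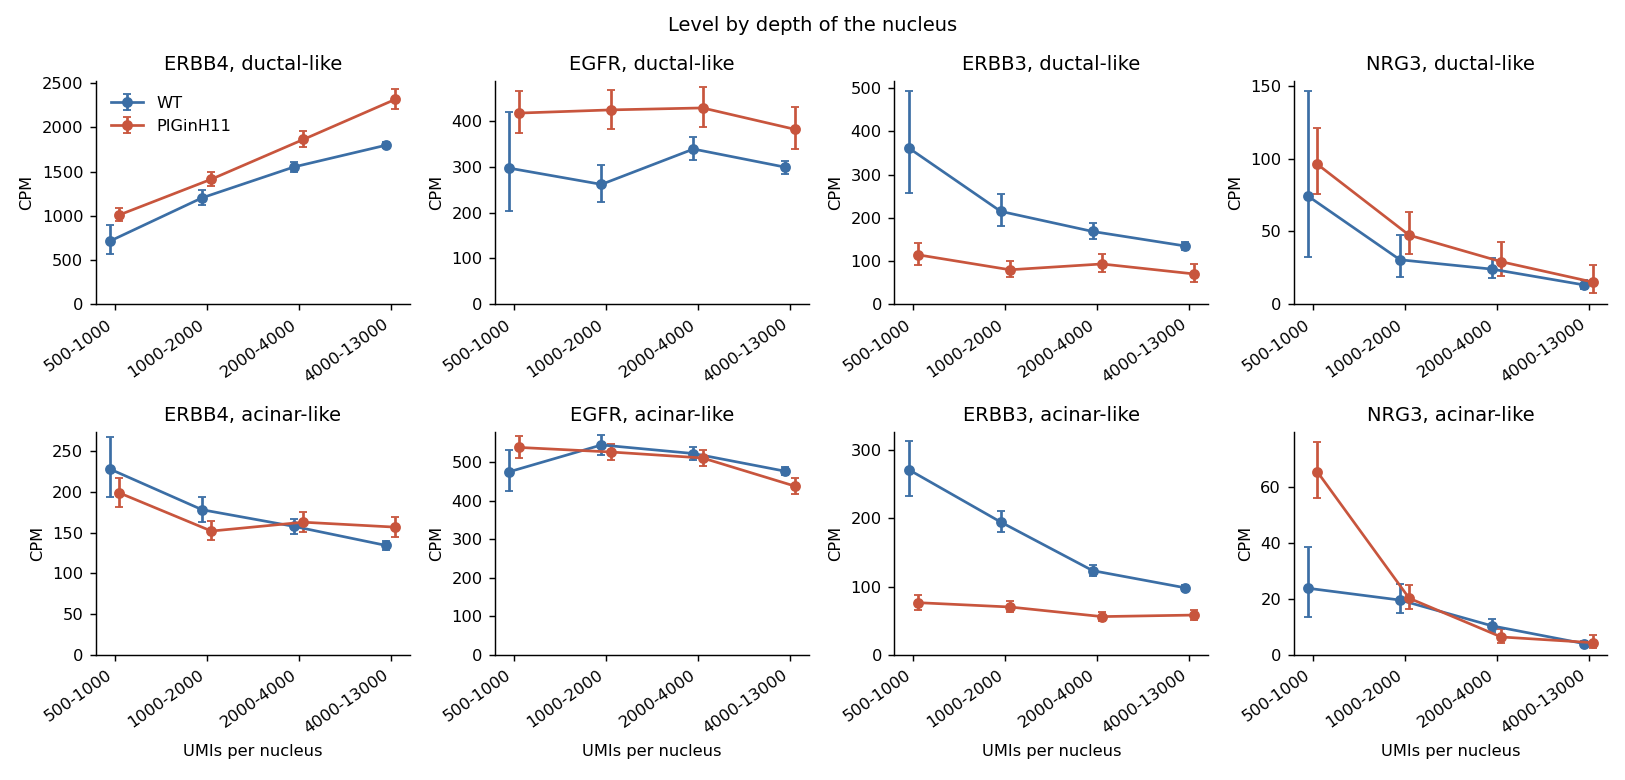
Level in CPM (y axis, linear, from 0) of ERBB4, EGFR, ERBB3 and NRG3 by the number of UMIs per nucleus (x axis, 4 ranges) in ductal-like (top) and acinar-like nuclei (bottom), with exact Poisson 95% intervals. ERBB4 of ductal-like nuclei is higher in deeper nuclei and higher in PIGinH11 in each range, and NRG3 is lower in deeper nuclei, with ductal-like intervals that overlap between the libraries in each range.

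NRG3 was unevenly spread over ductal-like clusters. The smallest of the 3 clusters, with COL4A3, COL4A4, PDGFC, LGR5 and KRT7 among its leading genes, had 116 CPM in WT (89.2 to 147, 65 UMIs in 182 nuclei) and 291 CPM in PIGinH11 (207 to 398, 39 UMIs in 91 nuclei). The largest cluster had 16.4 and 67.2 CPM, and the third, the deepest with medians of 6424 and 2724 UMIs, 5.97 and 6.22 CPM. In that cluster the log2 ratio between the libraries was 0.058 (-1.16 to 1.17), against 1.33 (0.72 to 1.93) in the smallest and 2.04 (1.58 to 2.51) in the largest cluster. In all, 5 ductal-like nuclei of WT and 2 of PIGinH11 held 5 or more NRG3 UMIs, of which 3 and 2 were in the smallest cluster, and no acinar-like nucleus held more than 2. Those nuclei of the smallest cluster held 23 of its 65 NRG3 UMIs in WT and 19 of its 39 in PIGinH11. Only 26 and 15 of its nuclei held any. Its levels and ratio thus rested on few nuclei, a spread that the intervals do not cover. The clusters were built without NRG3 among the clustering genes, but the cluster was singled out after its values were seen.

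In endocrine-like nuclei 3 members had at least 50 UMIs over both libraries, and 0 of them were 2-fold apart, against 3.83% of 6005 genes at least 2-fold higher and 2.61% at least 2-fold lower in PIGinH11. In Schwann-like nuclei no member reached 50 UMIs, and of the 368 genes that did, 5.43% were at least 2-fold higher and 9.78% at least 2-fold lower. NRG3 had 5 and 13 UMIs in endocrine-like and 0 and 1 in Schwann-like nuclei, so no difference of NRG3 could be read there. The 59 and 197 nuclei of the endocrine clusters left unnamed for their acinar markers had an NRG3 level of 11.2 CPM in WT and 89.8 CPM in PIGinH11, on 2 and 21 UMIs, of which 8 were in 1 nucleus.

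Of the other ligands, EGF, NRG2, NRG4 and TGFA were highest in acinar-like nuclei among the 9 named classes. For NRG4 in WT the acinar-like interval overlapped with that of macrophage-like nuclei (59.5 to 183 CPM). EGF, the ligand of EGFR, was at 531 and 656 CPM in acinar-like and 31.4 and 56.0 CPM in ductal-like nuclei. NRG2 was at 162 and 118 CPM in acinar-like and 8.96 and 9.94 CPM in ductal-like nuclei, or 18.1-fold and 11.9-fold higher in the former. NRG4, a ligand of ERBB4, was at 146 and 191 CPM in acinar-like and 72.6 and 89.2 CPM in ductal-like nuclei, and TGFA at 181 and 311 CPM against 119 and 208 CPM. Thus the ductal-like nuclei had the highest level of ERBB4, whereas NRG2, NRG4 and EGF had their levels at least 2-fold higher in acinar-like than in ductal-like nuclei. The ligands NRG3, EREG and NRG1 did not share this order. NRG3 was at 17.8 and 46.7 CPM in ductal-like against 7.58 and 19.8 CPM in acinar-like nuclei, and EREG was also higher in ductal-like nuclei. NRG1 was at 81.9 CPM in ductal-like and 137 CPM in acinar-like nuclei of WT, and at 142 CPM in both classes of PIGinH11.

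EREG, a ligand of EGFR and ERBB4, was the 1 ligand found mainly in ductal-like nuclei, at 64.2 CPM in WT (552 UMIs) and 17.2 CPM in PIGinH11 (57 UMIs), against 2.88 and 1.87 CPM in acinar-like nuclei. Its ductal-like log2 ratio was -1.90 (-2.32 to -1.51). Of the 12 receptors and ligands with at least 50 UMIs there, EREG was the 1 at least 2-fold lower in PIGinH11, against 3.02% of 11843 genes. The EREG difference was not split by depth or by cluster, and the part of read composition in it was not tested. BTC, another EGF-type ligand, had 75.9 and 72.1 CPM in beta-like nuclei. Its stellate-like level was 90.2 CPM in WT (67 UMIs) and 40.1 CPM in PIGinH11 (18 UMIs), a log2 ratio of -1.17 (-2.01 to -0.40). The acinar-like level of BTC was 38.0 and 24.4 CPM and its ductal-like level 13.6 and 20.8 CPM. HBEGF and AREG had levels under 3 CPM in ductal-like and acinar-like nuclei. EPGN had no row by that name. Relative to WT, TGFA was higher in PIGinH11 by 0.81 in ductal-like and 0.78 in acinar-like nuclei on the log2 scale, below 2-fold.

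**Figure D4:**
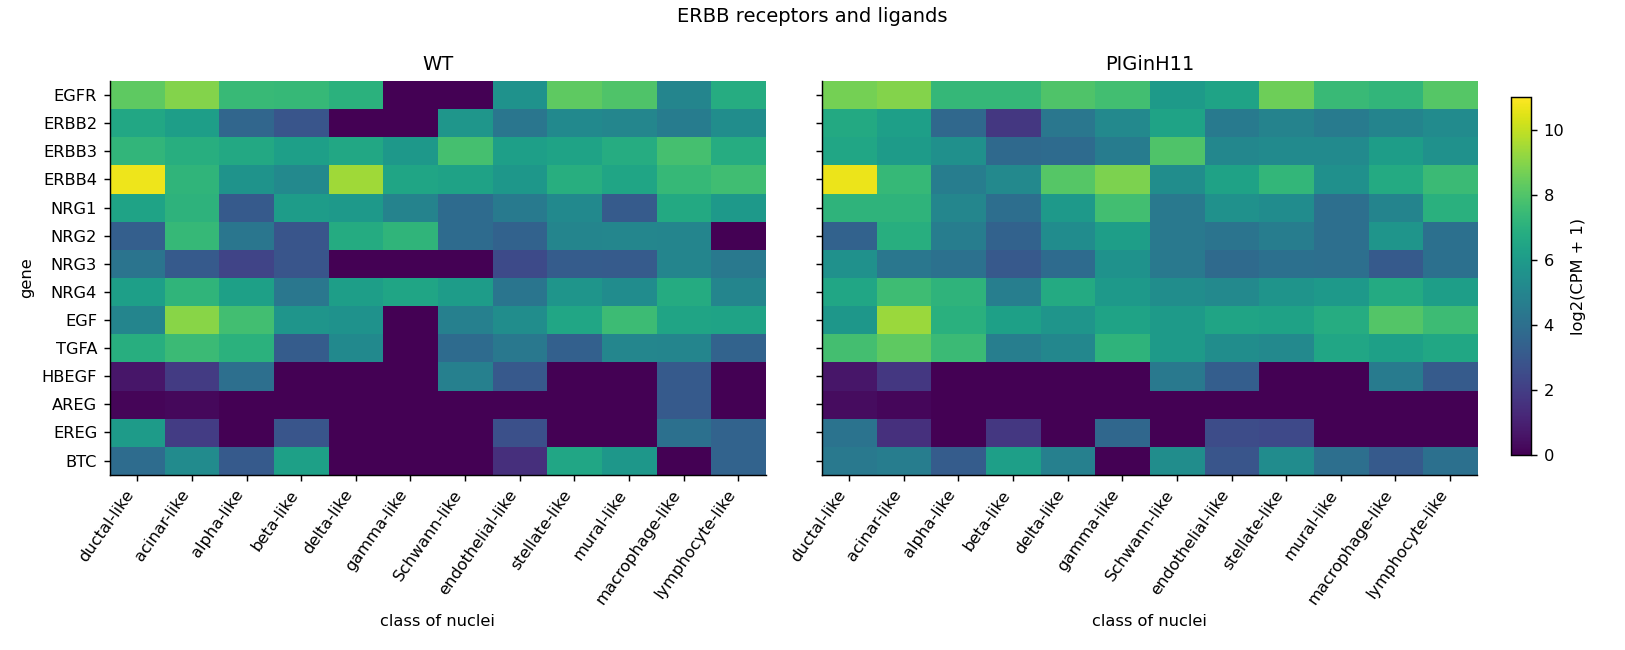
Levels of the ERBB receptors and ligands (rows) as log2(CPM + 1) (colour scale) by class of nuclei (columns) in the WT (left) and PIGinH11 library (right). ERBB4 is highest in ductal-like nuclei, with delta-like nuclei of WT at 680 CPM, and EGF and EGFR are highest in acinar-like nuclei. The WT gamma-like column holds 5 nuclei.

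Of the 60 further genes of the ERBB pathway list with a row, which covers proteases that release ligands, adaptors, the RAS-MAPK and PI3K-AKT arms, other effectors and feedback inhibitors, 57 had at least 50 UMIs in ductal-like nuclei. Of these, 6 were at least 2-fold higher and 1 was at least 2-fold lower in PIGinH11, with a median log2 ratio of -0.047 against 0.12 over all genes. ADAM12, a metalloprotease, had 7.33 and 25.6 CPM, and PRKCB, a protein kinase C, 10.5 and 47.0 CPM. PRKCA, another protein kinase C, was the lower one, at 735 CPM in WT and 355 CPM in PIGinH11. In acinar-like nuclei 59 had enough UMIs, of which 6 were at least 2-fold higher and 0 lower, with a median of -0.12 against 0.20 over all genes. Those with at least 100 UMIs and the largest ratios were the adaptor SHC3, ADAM12, PRKCB and the kinase ARAF, at log2 ratios of 1.68, 1.53, 1.24 and 1.09. In endocrine-like nuclei 40 had enough UMIs and in Schwann-like nuclei 5, and 0 of these were 2-fold apart. These shares lay near or below the background.

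Over 12 classes in 2 libraries, 24 points in all, the genes whose log2(CPM + 5) was most like that of each member were found among 11935 genes. For ERBB4 they were EHF (Pearson's r = 0.84), ROS1 (0.81) and PKP2 (0.80). For EGFR they were SPRING1 (0.91), ACAT1 (0.86) and LRRC42 (0.84), for NRG1 N4BP2 (0.76), STXBP2 (0.75) and PRPF39 (0.73), and for NRG3 SNX17 (0.82), PELP1 (0.81) and HCFC1 (0.77). For ERBB3 they were TFF2 (0.80), RPS15 (0.79), a ribosomal protein gene, and ASB3 (0.78). ERBB4 and NRG1 had an r of 0.64 with each other, and EGFR and ERBB4 0.30. The points share libraries and depth, several rest on few UMIs, and these values are descriptions only.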

How the data were processed

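Single-nucleus RNA sequencing (10x Genomics 3' chemistry) of the pancreas of 1 WT and 1 PIGinH11 pig was used. The authors made the deposited matrices of UMI counts per gene and barcode with Cell Ranger on Sscrofa11.1. The submitters' processing notes give version 3.1.0 and the file headers 5.0.0. As the counts come from nuclei, intronic reads of long genes can weigh heavily in them.

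Barcodes were kept at 270 to 3700 detected genes, below 13000 UMIs and below 10% of UMIs from mitochondrial genes. The methods print a UMI limit of 1300, but the study's supplementary quality figure shows nuclei of up to 13000 UMIs. Doublets were removed by Scrublet score (scanpy v1.11.5), at 0.8% per 1000 barcodes, leaving 11854 WT and 13126 PIGinH11 nuclei. Nuclei were clustered on the joined sets of the 2000 most variable genes of each library, without the genes of the ERBB list. The clustering used 30 principal components, Harmony and Louvain at resolution 1, and nuclei were named "X-like" from marker lists. The names were rebuilt here and may differ from the study's. Endocrine and Schwann nuclei were clustered a second time, and sub-clusters best matched by acinar or ductal markers were left unnamed. For the Schwann nuclei this was decided after the data were seen. In all, 432 WT and 480 PIGinH11 nuclei were left unnamed. Among them was a cluster of 514 nuclei over both libraries, with digestive enzyme genes such as CELA2A, PRSS2 and CPA1 among its leading genes. The acinar-like levels thus do not include that cluster.

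UMIs were summed per class and library. Intervals are exact 95% Poisson (CPM), conditional binomial (ratios) and Clopper-Pearson (shares), and the limit for 0 is 3 UMIs. Genes with at least 50 UMIs were compared with a limit of 2-fold, a rule of size and not a test. The ratio and its interval were run on simulated Poisson counts, the model that the interval assumes, so this checked the calculation only. It cannot show how well the intervals cover UMIs that are concentrated in few nuclei. Members, lists and the named genes (all members, ERBB2, all ligands, up to 4 other list genes per class and direction past 2-fold with at least 100 UMIs, and the 3 genes most like each member) were chosen with earlier results of these data known. Of 15410 genes without a symbol, 841 were named from the reference annotation.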

Additional observations from a re-analysis of the deposited data

Results flagged for a closer look

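The log2 ratio of ERBB4 between the libraries had opposite signs in different classes. In delta-like nuclei its log2 ratio of PIGinH11 over WT was -1.29 (-1.90 to -0.69, 57 and 42 UMIs in 28 and 63 nuclei), whereas it was 0.17 (0.094 to 0.24) in acinar-like, where median scaling turned it to -0.039, and 0.54 (0.07 to 1.02) in endothelial-like nuclei. After thinning, the intervals of the delta-like shares with ERBB4 overlapped between the libraries. The 10 endocrine-like nuclei with the most ERBB4 UMIs held 52.6% of them in WT and 37.0% in PIGinH11. Endothelial-like nuclei were the background for ERBB4 above. There ERBB4 was at 3.31% and 4.94% of the ductal-like level, and the summed ductal markers were at 2.80% and 4.51% of theirs. The part of ductal RNA in the endothelial-like ratio was not tested. With 1 library per genotype the difference between classes was not tested.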

How the results depend on the processing

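The calls were recomputed under 13 other settings and 2 that were added after the data were seen, nuclei of 1000 to 3000 UMIs and the first clustering only. The number of members at least 2-fold apart between the libraries went from 1 to 0 in ductal-like nuclei at 1000 to 3000 UMIs. In acinar-like nuclei it went from 1 to 0 at 1000 to 3000 UMIs, with a UMI limit of 1300 and after subtraction of free RNA, and in endocrine-like nuclei from 0 to 1 with the limit of 1300. The member concerned in ductal-like and acinar-like nuclei was NRG3, whose acinar-like log2 ratio of 1.39 changed sign to -0.039 at 1000 to 3000 UMIs. The number of members with a ductal-like level of at least 2-fold the acinar-like level went from 2 to 1 without doublet removal, with the UMI limit of 1300, as a mean over nuclei, after thinning to 500 UMIs and at 1000 to 3000 UMIs. ERBB4 stayed higher in ductal-like nuclei in each alternative run, with a log2 value over acinar-like nuclei of 2.07 to 4.19 in WT and 2.61 to 3.70 in PIGinH11, and ERBB3 stayed lower in PIGinH11 in ductal-like, acinar-like and endocrine-like nuclei. The cause of these changes was not tested. Of the single values, 188 of 210 between libraries and 348 of 373 over acinar-like nuclei kept their sign. Without Harmony no Schwann-like class was found, and median-of-ratios scaling has no value across classes. No paired analysis was possible because each genotype has 1 library. The few Schwann-like and gamma-like nuclei and the shallower PIGinH11 library set the precision.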
